A study of Mus musculus with 2 samples.

Results

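The genes for 10 subunits of the TIP60-p400 complex, named Ep400, Kat5, Trrap, Brd8, Epc1, Epc2, Ing3, Mbtd1, Meaf6 and Morf4l1, were examined among 21951 protein-coding genes of the mouse annotation GENCODE vM21. They were chosen by gene symbol, and all 10 symbols were found. CUT&RUN uses an antibody to tether a nuclease, so that DNA next to the antibody's target is released and sequenced. The cells, named SYAT, were mouse embryonic stem cells (mESCs) that derive from CGR8 cells through 1 homozygous clone, carry YPet-AID at the 3′ end of both Srcap alleles and stably express the receptor OsTir1. One group held 1 library made with an antibody against GFP (Abcam ab290), which recognises the YPet tag, and the other held 1 library made with an antibody against SRCAP itself (Kerafast ESL-103). Per the labels, SYAT cells were kept with auxinole to avoid basal loss of the fusion protein and were moved to Serum LIF medium before experiments. The labels did not give the treatment of each library. A figure legend of the study mentions control SYAT cells for its CUT&RUN mapping, without naming the library. No untagged line and no control antibody was used here. The labels call both libraries CUT&RUN, whereas for chromatin mapping the study's methods name the GFP antibody under CUT&Tag and not under CUT&RUN.

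TIP60-p400 is a large nuclear complex that acts on histones. Its ATPase EP400 exchanges H2A for the variant H2A.Z in nucleosomes, which is also the reaction of the SRCAP complex, and its acetyltransferase KAT5 (TIP60) acetylates H4, H2A and H2A.Z. In yeast the exchange and acetylation activities belong to separate complexes, SWR1 and NuA4. The mammalian complexes share the RUVBL helicases, ACTL6A, DMAP1, VPS72 and YEATS4. In mESCs the complex is known for its part in maintaining embryonic stem cell identity. The lists show where DNA recovered with the GFP or the SRCAP antibody gave peaks at the genes of this complex. They hold no information on the expression of those genes or on the binding of EP400.

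With the GFP antibody, 7 of 10 subunit genes had a promoter peak, namely Ep400, Kat5, Brd8, Epc1, Ing3, Mbtd1 and Meaf6. A promoter peak is a peak whose midpoint lay from 1000 bp upstream to 500 bp downstream of any annotated transcription start site (TSS) of the gene. In that list 35.0% of all protein-coding genes had such a peak. With the SRCAP antibody 5 of 10 had a promoter peak, beside 35.6% of all protein-coding genes. The same 5 genes, Ep400, Brd8, Ing3, Mbtd1 and Meaf6, had promoter peaks in both lists, beside 27.0% of protein-coding genes. Trrap, Epc2 and Morf4l1 had a promoter peak in neither list, as did 56.4% of protein-coding genes. Among genes with a GFP promoter peak, 77.2% of all protein-coding genes also had a SRCAP promoter peak, and among subunit genes this was 5 of 7. There was no replicate library, so no test between antibodies was possible, and differences between lists are given as counts only. The lists hold no read counts, so depth is unknown and the absence of a peak is an absence from the list, not of binding.

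Within the gene or 20 kb of either end, all 10 subunit genes had a GFP peak and 8 had a SRCAP peak, where Epc1 and Morf4l1 had none. The shares over protein-coding genes were 69.7% and 70.4%, and 63.2% for genes with peaks in both lists, which 8 subunit genes had. The share of genes with a peak in their span was larger for longer genes, and 5 subunit genes (Ep400, Trrap, Epc1, Epc2 and Mbtd1) fell in the longest of 5 equal length classes of protein-coding genes, of at least 58103 bp. In that class 81.7% of genes had a GFP peak and 83.3% a SRCAP peak in the same span, and 40.8% and 42.6% had a promoter peak. The spans of the 10 genes held 24 GFP peaks and 14 SRCAP peaks. For 10 genes of the same length classes the mean numbers were 22.7 and 21.9, so the GFP count lay near that mean and the SRCAP count below it. The longest class reaches 4434882 bp, far above the longest member at 106.3 kb, so its genes are not all of like length. Per Mb of span the members had 25.2 GFP and 14.7 SRCAP peaks, beside 10.5 and 10.3 per Mb over the whole genome. The genome rates include regions far from any gene, so they are not a like baseline for gene spans. Of these peaks 11 in each list overlapped a peak of the other list, beside 56.2% of all GFP peaks and 57.7% of all SRCAP peaks. Of the 24 GFP peaks 9, and of the 14 SRCAP peaks 10, were centred in the promoter of another gene as well.

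**Figure D1:**
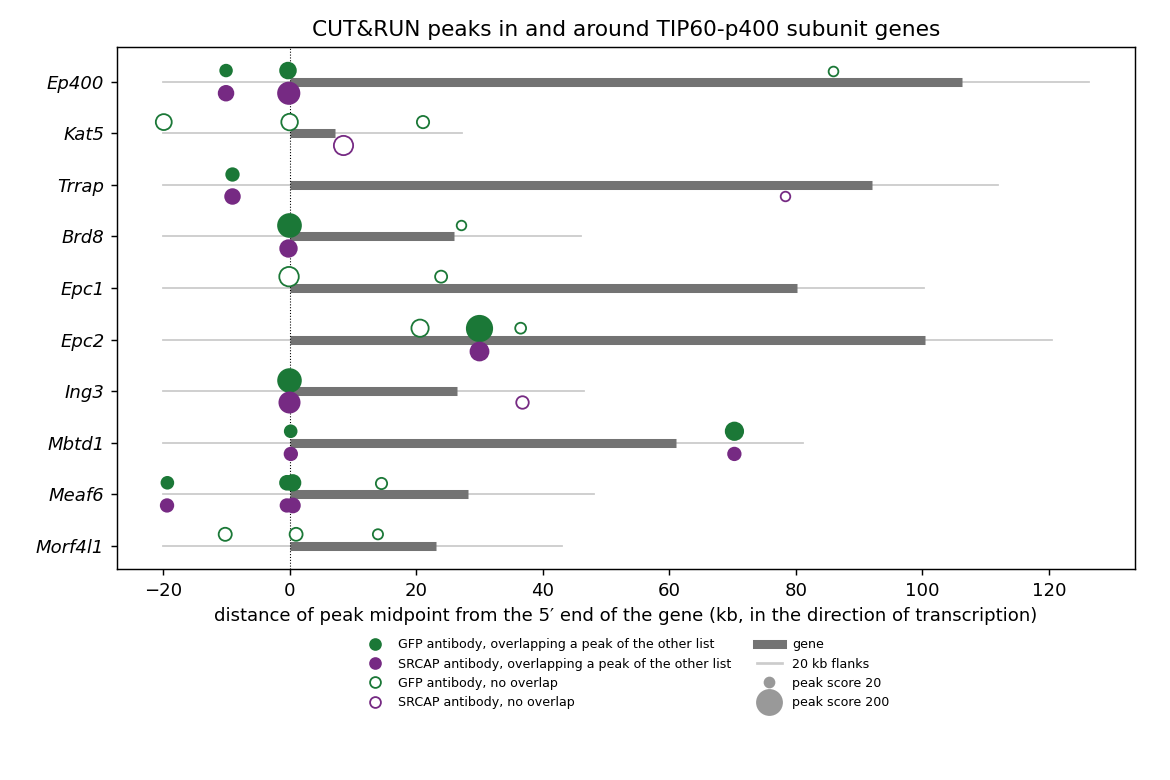
Peaks in the span of each subunit gene, with the distance of the peak midpoint from the 5′ end of the gene in kb on the horizontal axis and 1 gene per row. Points above the gene bar are GFP peaks (24 in all) and points below it SRCAP peaks (14 in all), filled where the peak overlaps a peak of the other list, and their area grows with the authors' score. Epc1 and Morf4l1 have points only above the bar.

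Ep400 encodes the ATPase that gives the complex its exchange activity. The gene lies on the minus strand at chr5:110664373-110770717 (GRCm38) and spans 106.3 kb with 9 annotated TSSs. Its GFP promoter peak at chr5:110770776-110771221 had a score of 71, and its SRCAP promoter peak at chr5:110770613-110771146 a score of 142. The score is the authors' value for each peak, with a minimum of 13 and a median of 47 in both lists, and its relation to read depth was not stated. Scores were therefore ranked within a list, where the GFP peak was at percentile 74.7 and the SRCAP peak at percentile 93.9, with tied scores given their mean rank. The peaks overlapped over 371 bp, and their midpoints lay 281 bp and 162 bp upstream of the gene's 5′ end. The antisense gene Gm15559 starts on the opposite strand 232 bp upstream of Ep400, and that start lay within both peaks, whereas only the SRCAP peak reached over the 5′ end of Ep400. The central 300 bp of the overlap, chr5:110770812-110771111, are shown on the strand of Ep400 because both antibodies recovered them, and none of 9 exact motifs searched on both strands (NFY, ETS, YY1, E-box, SP/KLF, NRF1, CRE, ZNF143 and CTCF) occurs in them. Their GC content was 69.3% and their observed over expected CpG ratio 0.89.
Ep400 promoter: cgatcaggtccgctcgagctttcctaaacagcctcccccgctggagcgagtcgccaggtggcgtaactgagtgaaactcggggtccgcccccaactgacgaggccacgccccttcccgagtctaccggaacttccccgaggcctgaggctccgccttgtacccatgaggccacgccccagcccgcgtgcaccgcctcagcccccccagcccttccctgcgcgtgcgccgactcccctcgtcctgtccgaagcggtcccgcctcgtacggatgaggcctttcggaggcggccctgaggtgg
About 10 kb upstream of Ep400, overlapping peaks with scores of 33 (GFP) and 60 (SRCAP) lay in the promoter of Pus1. A GFP peak within an Ep400 intron, at chr5:110684773-110685006, had a score of 19, at percentile 2.8 of the list, and no SRCAP partner.

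Kat5, the acetyltransferase subunit gene, was the shortest of the 10 at 7.2 kb (chr19:5603014-5610237, minus strand). The GFP list held a promoter peak at chr19:5610097-5610434 with a score of 80, at percentile 79.8, whose midpoint lay 28 bp upstream of the gene's 5′ end. No SRCAP peak overlapped it. The only SRCAP peak in the span of Kat5, at chr19:5601785-5601947, had the higher rank in its list, with a score of 113 at percentile 89.4, but it lay 1148 bp beyond the 3′ end of Kat5 in the promoter of Rnaseh2c, which encodes a subunit of ribonuclease H2. No GFP peak overlapped that SRCAP peak. Among protein-coding genes of the length class of Kat5 (5262 to 11946 bp), 30.1% had a promoter peak in each list. The part of the GFP peak upstream of the gene, chr19:5610238-5610434, is shown on the strand of Kat5 as a promoter that only the GFP list contains. Capitals mark the E-box CACGTG, at bases 155 to 160 of the stretch.
Kat5 promoter: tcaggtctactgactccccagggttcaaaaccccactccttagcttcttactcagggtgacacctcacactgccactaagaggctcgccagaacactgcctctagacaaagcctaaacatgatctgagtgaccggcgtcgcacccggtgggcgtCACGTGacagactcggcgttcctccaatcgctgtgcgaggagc
The other GFP peaks near Kat5 lay 13843 bp downstream (score 38) and 19920 bp upstream (score 73), and neither had a SRCAP partner.

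Trrap encodes the large scaffold of the complex, a pseudokinase that also belongs to SAGA. The gene (chr5:144767732-144859778, plus strand, 92.0 kb) had no promoter peak in either list although 14 TSSs are annotated. Its span contained an overlapping pair upstream, inside the neighbouring gene Tmem130 and outside any annotated promoter window. The GFP peak of the pair (chr5:144758441-144758724) had a score of 40 and the SRCAP peak (chr5:144758431-144758883) a score of 60. Their midpoints lay 9150 bp and 9075 bp upstream of Trrap. The whole GFP peak lay within the SRCAP peak, and its 284 bp are shown on the strand of Trrap as the only DNA within 20 kb of this gene that both lists contain. None of the motifs searched occurs in it, and 11.3% of it was repeat-masked.
Trrap upstream region: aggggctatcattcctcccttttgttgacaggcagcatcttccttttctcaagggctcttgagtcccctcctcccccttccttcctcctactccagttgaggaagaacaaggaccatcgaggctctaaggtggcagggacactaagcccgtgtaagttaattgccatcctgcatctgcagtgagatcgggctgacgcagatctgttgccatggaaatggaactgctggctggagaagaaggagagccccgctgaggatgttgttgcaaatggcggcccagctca
A SRCAP peak in an intron of Trrap had a score of 18, at percentile 4.1 of its list, with no GFP partner.

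Ing3 encodes a PHD finger protein that reads methylated histone H3. The gene (chr6:21949571-21976038, plus strand, 26.5 kb) had promoter peaks of high rank in both lists. The GFP peak at chr6:21949252-21949667 had a score of 163, at percentile 95.9, and the SRCAP peak at chr6:21949261-21949549 a score of 126, at percentile 91.8. The SRCAP peak lay wholly within the GFP peak, and both midpoints were upstream, by 112 bp for GFP and 166 bp for SRCAP. No TSS on the opposite strand lay within 1 kb of the start of Ing3, and among the 6 subunit genes without such a neighbour only Ing3 had a promoter peak in both lists. The 289 bp covered by both peaks are shown on the strand of Ing3, with the cyclic AMP response element (CRE) TGACGTCA in capitals at bases 266 to 273. Its CpG ratio was 0.99.
Ing3 promoter: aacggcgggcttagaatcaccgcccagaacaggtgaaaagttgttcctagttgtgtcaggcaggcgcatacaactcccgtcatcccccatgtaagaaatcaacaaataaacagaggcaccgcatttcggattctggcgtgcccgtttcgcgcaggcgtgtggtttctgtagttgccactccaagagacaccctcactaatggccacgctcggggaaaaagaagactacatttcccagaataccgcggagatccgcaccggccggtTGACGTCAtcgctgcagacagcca
Over all RefSeq promoters 1.79% hold these letters. A SRCAP peak without a GFP partner lay 10304 bp downstream of Ing3 in the promoter of Cped1 (score 40).

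Mbtd1 encodes a protein with MBT repeats, which bind methylated histone H4. Its GFP promoter peak was the lowest scoring among the members, and its SRCAP promoter peak shared the lowest score with the upstream peak of Meaf6. The GFP peak (chr11:93885853-93886142) had a score of 34 and the SRCAP peak (chr11:93885853-93886187) a score of 40, at percentiles 28.4 and 41.3 of their lists. They began at the same base, 1 bp inside the 5′ end of Mbtd1 (chr11:93885852-93946985, plus strand, 61.1 kb), and extended 290 bp and 335 bp into the transcribed region, over the 5′ UTR at their midpoints. Utp18 starts on the opposite strand 86 bp upstream of Mbtd1, and that divergent start lay outside both peaks. Both midpoints were still within the promoter window of Utp18, so the peaks cannot be assigned to Mbtd1 alone. A second overlapping pair downstream, in the promoter of Nme2, had scores of 90 (GFP) and 40 (SRCAP).

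Meaf6 encodes a small subunit that is also found in the MOZ and HBO1 acetyltransferase complexes. It was the only member with more than 1 promoter peak per list, and its peaks lay on either side of the TSS. The upstream pair had scores of 52 (GFP, chr4:125084586-125084805) and 40 (SRCAP, chr4:125084588-125084744). The downstream pair, within an intron of the gene, had scores of 68 (GFP, chr4:125085488-125085702) and 53 (SRCAP, chr4:125085499-125085747). Between them 682 bp in the GFP list and 754 bp in the SRCAP list contained no peak, and the 5′ end of Meaf6 (chr4:125085134-125113238, plus strand, 28.1 kb) lay in that gap, as did the start of the antisense gene Gm12932, 187 bp upstream. The gap also contained the whole RefSeq promoter of Meaf6, from 250 bases before to 50 after its start. The DNA covered in both lists on each side is shown on the strand of Meaf6, chr4:125084588-125084744 upstream and chr4:125085499-125085702 downstream, and neither holds a motif searched.
Meaf6 upstream: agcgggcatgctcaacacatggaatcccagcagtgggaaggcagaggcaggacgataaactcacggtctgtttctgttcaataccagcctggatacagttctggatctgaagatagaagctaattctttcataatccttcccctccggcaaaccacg
Meaf6 downstream: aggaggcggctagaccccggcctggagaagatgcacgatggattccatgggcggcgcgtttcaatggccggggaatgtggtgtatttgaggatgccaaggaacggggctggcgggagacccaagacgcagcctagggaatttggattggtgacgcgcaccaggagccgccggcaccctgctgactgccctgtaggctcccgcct
The upstream stretch had a GC content of 49.7% and a CpG ratio of 0.517, and the downstream stretch 63.7% and 0.746. A GFP peak in an intron of Meaf6 had a score of 30 and no SRCAP partner.

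Morf4l1 encodes MRG15, a chromodomain protein that binds H3 methylated at lysine 36. The gene (chr9:90091665-90114774, minus strand, 23.1 kb) had 3 GFP peaks and no SRCAP peak in its span. The nearest to a TSS, chr9:90113624-90113921 with a score of 44, lay within an intron with its midpoint 517 bp downstream of the closest TSS, just outside the promoter window, and 1002 bp downstream of the gene's 5′ end. It counted as a promoter peak when any overlap with the window was accepted. The other GFP peaks were an intronic peak with a score of 22 and a peak 10205 bp upstream of the gene with a score of 45. All 3 scores were below the list median of 47.

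Epc2 encodes an enhancer of polycomb homologue, the scaffold that ties the acetyltransferase module to the rest of the complex. The gene (chr2:49451486-49551948, plus strand, 100.5 kb) had no promoter peak, but it held the highest scoring GFP peak of all 24. This peak, chr2:49481195-49481769, lay in an intron about 30 kb from the 5′ end and had a score of 206, at percentile 97.7. The SRCAP peak within it, chr2:49481271-49481514, had a score of 97, at percentile 85.2. All of the SRCAP peak and 67.5% of the GFP peak were repeat-masked. The SRCAP peak's sequence matched the genome in 6164 places at an identity of at least 90% over at least 80% of its length. Each of the other 37 member peaks, the wider GFP peak here included, matched in 1 place by the same rule. That GFP peak was 575 bp wide and overlapped the SRCAP peak over 244 bp. Copies of this stretch alone fall short of 80% of its width, so its count does not show unique sequence. The sequence is shown because it recurs in the genome, and how reads that map to several places were treated for these lists was not stated. Capitals mark the YY1 motif AAGATGG at bases 62 to 68 and the ETS motif CCGGAAG at bases 129 to 135. In windows of 200 bp around the midpoint, 4.65% of GFP peaks outside promoters held the YY1 motif and 2.23% the ETS motif.
Epc2 intron: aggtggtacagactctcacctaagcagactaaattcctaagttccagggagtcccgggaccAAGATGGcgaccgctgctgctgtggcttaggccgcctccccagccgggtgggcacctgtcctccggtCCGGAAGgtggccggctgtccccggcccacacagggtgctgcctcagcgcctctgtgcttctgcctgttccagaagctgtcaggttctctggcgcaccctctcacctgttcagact
The remaining GFP peaks of Epc2 were intronic, with scores of 88 and 27, and had no SRCAP partner.

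Epc1 encodes the paralogue of EPC2 in the complex. Unlike Epc2 it carried a peak at its promoter, with the GFP antibody alone. The peak at chr18:6515975-6516474 had a score of 116, at percentile 90.6, and spanned 500 bp with its midpoint 116 bp upstream of the gene (chr18:6435951-6516108, minus strand, 80.2 kb). A GFP peak with a score of 36 lay in an intron, 1322 bp upstream of an internal TSS. No SRCAP peak lay in the gene or within 20 kb of it, and widening the flanks to 50 kb left it without one. The enhancer of polycomb pair thus differed in the lists, with a GFP peak at the promoter of Epc1 and an intronic pair in repeat sequence at Epc2.

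Brd8 encodes a bromodomain protein, which binds acetylated histones. Its GFP promoter peak (chr18:34624587-34624941) had a score of 165, the highest of all member promoter peaks, at percentile 96.1. The SRCAP peak (chr18:34624556-34625091) contained the whole GFP peak and had a score of 80, at percentile 77.7. The order of ranks was the reverse of that at Ep400, where the SRCAP peak ranked higher. Their midpoints lay 163 bp and 222 bp upstream of Brd8 (chr18:34598615-34624601, minus strand, 26.0 kb). Kif20a, which encodes a mitotic kinesin, starts on the opposite strand 12 bp upstream, so the peaks lay over the promoters of both genes, which cannot be told apart here. A GFP peak with a score of 18 lay 1096 bp beyond the 3′ end of Brd8, in the promoter of 4933408B17Rik, and had no SRCAP partner.

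**Figure D2:**
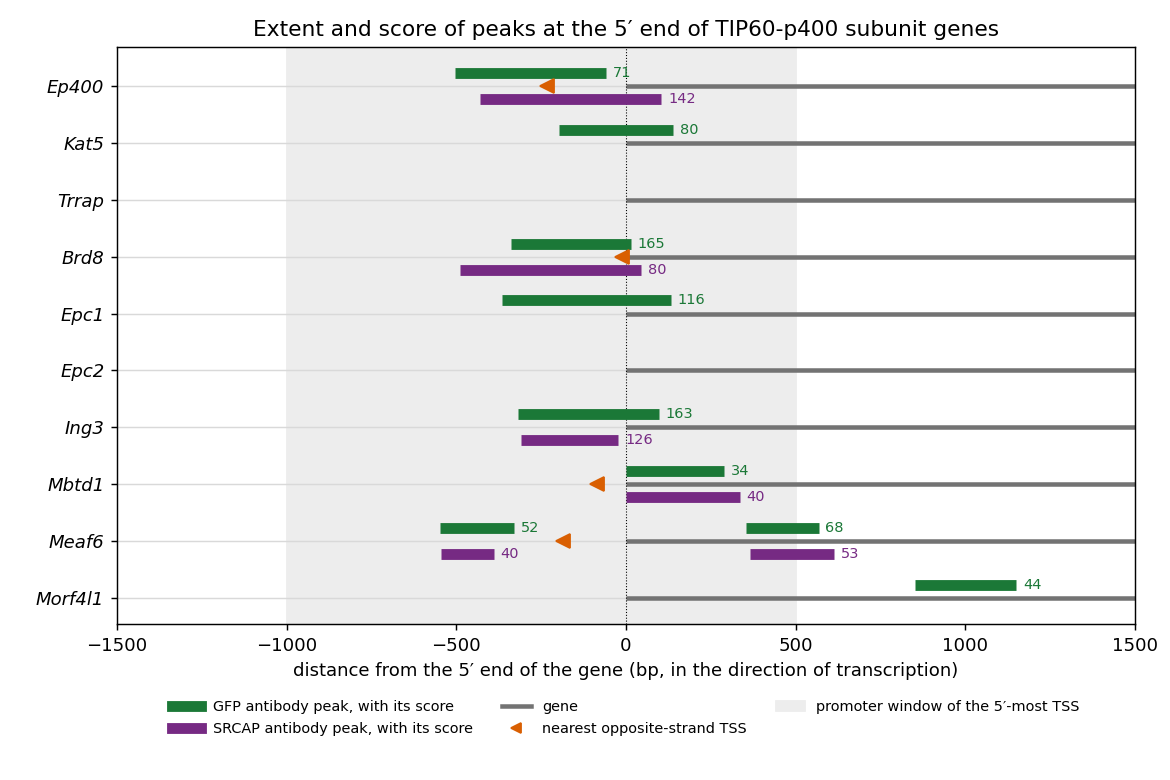
Extent of each peak near the 5′ end of the subunit genes, with the distance from the 5′ end in bp on the horizontal axis, 1 gene per row and the authors' score printed beside each bar. Green bars are GFP peaks, purple bars SRCAP peaks, triangles the nearest TSS on the opposite strand, and grey shading the promoter window of the gene's 5′ end. Peaks lie mostly upstream, begin at the 5′ end in Mbtd1, and leave the 5′ end of Meaf6 uncovered between them.

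Compared side by side, the promoter peaks had scores from 34 to 165 with the GFP antibody (8 peaks, median 75.5) and from 40 to 142 with the SRCAP antibody (6 peaks, median 66.5). The medians over all promoter peaks of the lists were 52 and 53. By its highest promoter peak in the GFP list Brd8 came before Ing3, Epc1, Kat5, Ep400, Meaf6 and Mbtd1, in that order. In the SRCAP list the order was Ep400, Ing3, Brd8, Meaf6 and Mbtd1, so Mbtd1 was lowest in both. With 1 library per antibody no neighbours in either order could be separated by a replicate spread. The midpoints lay upstream of the closest TSS in 7 of 8 GFP peaks and 5 of 6 SRCAP peaks, beside 66.8% and 67.7% of all promoter peaks. That of Mbtd1 counted as upstream from an internal TSS. All 6 SRCAP promoter peaks and 6 of 8 GFP promoter peaks overlapped a peak of the other list, beside 67.5% of the promoter peaks of either list. Outside promoters, the GFP list had 8 member peaks in gene bodies, of which 1 was shared, and 8 in flanks, of which 4 were shared. The SRCAP list had 2 in gene bodies, 1 of them shared, and 6 in flanks, 4 of them shared. Over all peaks outside promoters, in genes or not, 51.3% of GFP peaks and 53.2% of SRCAP peaks were shared.

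**Figure D3:**
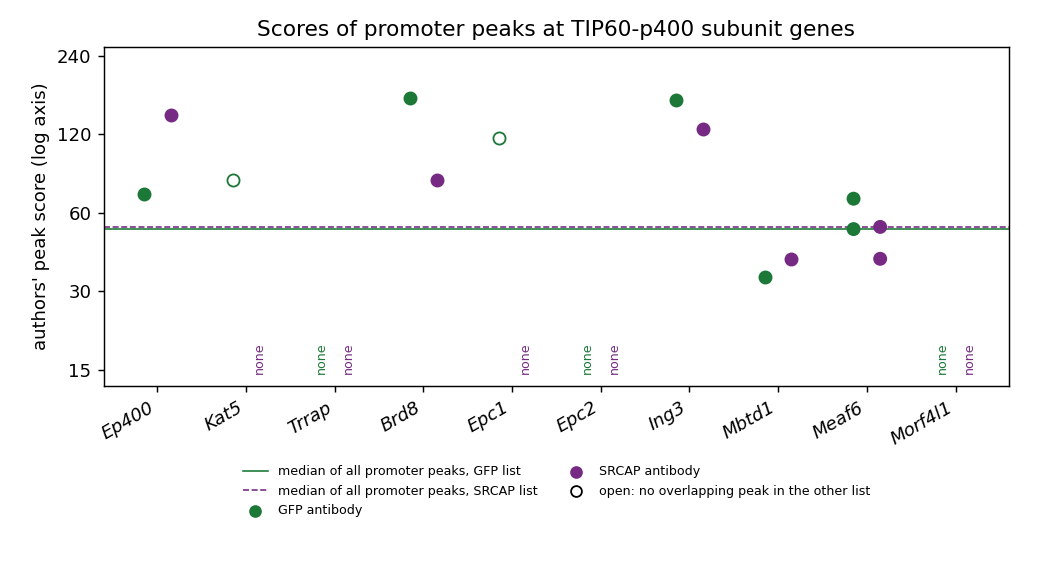
Authors' score of each promoter peak on a log axis for the 10 subunit genes, with GFP peaks in green and SRCAP peaks in purple. Open points (Kat5 and Epc1) have no overlapping peak in the other list, lines are the medians over all promoter peaks of each list (52 and 53), and "none" marks a gene without a promoter peak in that list.

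Neighbouring starts on the opposite strand marked most of the genes with peaks in both lists. Ep400, Brd8, Mbtd1 and Meaf6 had such a TSS within 1 kb of their 5′ end, and all 4 had promoter peaks in both lists. Each of these peaks was centred in the promoter window of the opposite-strand gene as well. Of the other 6, Ing3 had promoter peaks in both lists, Kat5 and Epc1 had them with the GFP antibody alone, and Trrap, Epc2 and Morf4l1 had none. Over all protein-coding genes 45.7% of the 4354 with such a TSS had promoter peaks in both lists, against 22.4% of the 17597 without. The members followed the direction of this difference, and with 10 genes it is a description only.

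RefSeq promoters, from 250 bases before to 50 after the start of a gene (GRCm38), were found for 8 of 10 members. Kat5, Ing3 and Mbtd1 had 2 each, and that with the outermost start was used. Their median GC content was 68.5% and their median CpG ratio 0.96, beside 52.7% and 0.384 over all 32851 RefSeq promoters. The members without a promoter peak did not stand together in composition. Epc2 had the highest GC content, 79.7% with a CpG ratio of 1.01, and Trrap had 69.0% and 0.888. Morf4l1, also without a promoter peak, had the lowest CpG ratio at 0.546. Ing3, with peaks in both lists, had a GC content of 55.3%, below that of Trrap, and a CpG ratio of 1.05. Peaks overlapped the RefSeq promoters of Ep400, Ing3 and Mbtd1 in both lists and that of Kat5 in the GFP list, and no peak overlapped those of Trrap, Epc2, Meaf6 and Morf4l1. At the later start, peaks of both lists overlapped the promoters of Ing3 (GC content 54.0%, CpG ratio 1.14) and Mbtd1 (63.0%, 0.873), and no peak overlapped that of Kat5 (69.7%, 0.861).

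**Figure D4:**
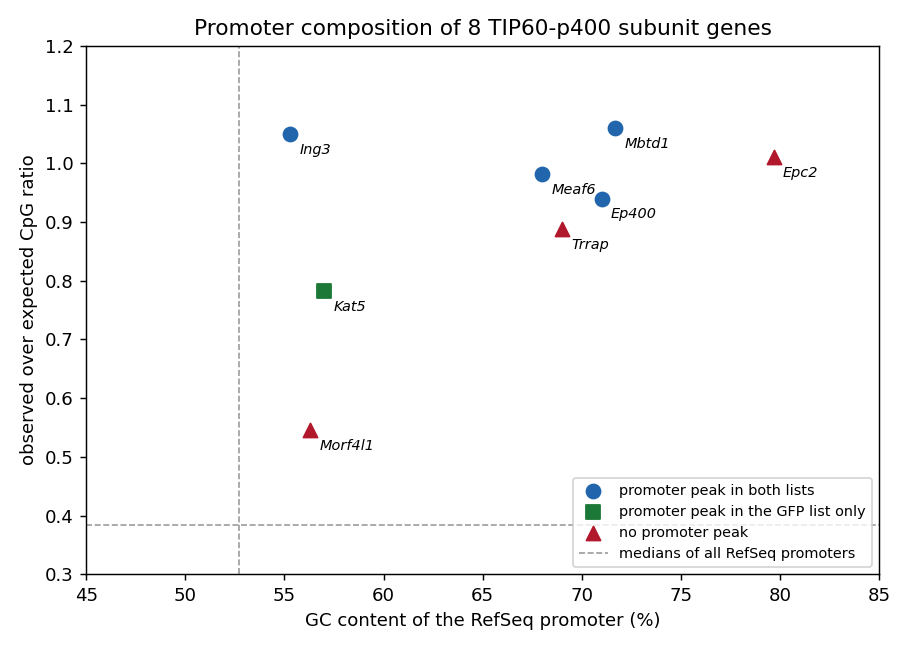
GC content in percent and observed over expected CpG ratio of the RefSeq promoters of 8 subunit genes, 1 point per gene, with shape and colour by the promoter peaks of the gene and dashed lines at the medians of all RefSeq promoters (52.7% and 0.384). All 8 genes lie above both lines, and genes without a promoter peak (triangles) lie at both the lowest CpG ratio, 0.546, and the highest GC content, 79.7%.

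Exact motifs were searched in these 8 promoters on both strands. The ETS motif CCGGAAG occurred in 3 (Kat5, Mbtd1 and Meaf6), beside 8.86% of all RefSeq promoters. The E-box CACGTG occurred in 2 (Kat5 and Mbtd1), beside 7.15%, and the SP/KLF motif GGGCGGG in 2 (Trrap and Mbtd1), beside 25.6%. The CRE TGACGTCA occurred in that of Ing3 only. The NFY motif CCAATCA, the YY1 motif AAGATGG, the NRF1 motif TGCGCATGC, the ZNF143 motif ACTACAA and the CTCF motif occurred in none, beside 7.82%, 6.34%, 1.52%, 3.24% and 0.557% of all RefSeq promoters. No motif in this set contains another. The promoter at the later start of Kat5 held the SP/KLF motif alone, that of Ing3 the CRE, and that of Mbtd1 none. In the 200 bp around the peak midpoints, the GFP promoter peak of Kat5 held the E-box, as did 5.09% of all GFP promoter peaks. The CRE was in that of Ing3 (0.837% of all), the ETS motif in that of Brd8 (7.55%) and the SP/KLF motif in that of Epc1 (17.5%). Of the same windows at the 6 SRCAP promoter peaks, that of Brd8 held the ETS and NFY motifs, beside 9.21% and 9.09% of all SRCAP promoter peaks, and the others held none. The CRE of Ing3 lay within the SRCAP peak but outside its central 200 bp.

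Genes of related proteins were counted in the same way. For comparison, promoter peaks marked 35.0% (GFP), 35.6% (SRCAP) and 27.0% (both lists) of all protein-coding genes. Of 9 other subunits of TIP60-p400, most of them shared with the SRCAP complex, 5 had a promoter peak in each list and 4 in both. Actb, Dmap1 and Jazf1 had none, Actl6a, an actin-related protein, had a GFP peak only (score 54), and Mrgbp, a partner of MRG15, had a SRCAP peak only (score 96). All 3 genes of the SRCAP complex alone (Srcap, Znhit1 and Actr6) and all 7 genes in a chosen list of paralogues of Ing3, Morf4l1 and Mbtd1 (Ing1, Ing2, Ing4, Ing5, Morf4l2, L3mbtl2 and L3mbtl3) had promoter peaks in both lists. Ing3 and its 4 paralogues all had promoter peaks in both lists, whereas Morf4l1 differed from Morf4l2, which had scores of 193 (GFP) and 157 (SRCAP). The related genes were chosen with earlier results of these data known, so their counts are a description only. Among the 4 MYST acetyltransferases related to Kat5, Kat6b and Kat7 had promoter peaks in both lists, Kat8 had a GFP peak only (score 53), as Kat5 did, and Kat6a had none.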

How the data were processed

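CUT&RUN peak lists from SYAT mESCs were analysed, 1 library with a GFP antibody and 1 with a SRCAP antibody, grouped by the antibody in their titles. The authors deposited 28718 and 28167 peaks, called per library with MACS2 as the peak names show, each with a score whose meaning and control were not stated. Per the labels, STAR, Picard and MACS2 were used with mm10. No peak lay beyond a chromosome end of GRCm38, and each list held 3 mitochondrial peaks. The lists hold no counts, so depth is unknown and no interval can be given.

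Peaks were placed by their midpoint against GENCODE vM21 with Python 3.11.15, numpy 2.4.6 and pandas 2.3.3. Promoter windows ran from 1000 bp upstream to 500 bp downstream of any TSS, and gene spans reached 20 kb beyond both ends. Each peak was counted once per gene, as promoter, gene body or flank in that order. Peaks overlapping by at least 1 bp were called shared (checked with bedtools 2.31.1). Copies of peak sequences were counted with BLAST 2.17.0. Motifs, GC content and CpG ratio came from GRCm38 and RefSeq promoters, and printed sequences leave out annotated UTR and coding bases. The steps were tested on simulated data. Each antibody had 1 library, so no test was made. All 10 members were named with every promoter peak, and genes of the related lists were named where they had promoter peaks in fewer than both lists or to list a group. Values of Morf4l2 were chosen after they were seen. The members, gene lists and motifs were chosen with earlier results of these data known. Other windows, flanks, overlaps, score thresholds and motif windows were tried. Plots were drawn with matplotlib 3.10.9. One result is not reported here.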

Additional observations from a re-analysis of the deposited data

How the results depend on the processing

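No paired analysis was possible because there was a single library per antibody, with the same replicate number in both titles. Of 45 alternative values for the subunit genes, 36 stayed within 1.5 times the reported count and 9 moved further. The number of peaks at the members depended most on the settings. With flanks of 50 kb it was 37 (GFP) and 30 (SRCAP), and with flanks of 5 kb the SRCAP count was 9. With a stricter score, the median of each list, 11 GFP and 8 SRCAP peaks remained and 5 in each list were shared. Without peaks in another gene's promoter, 15 GFP and 4 SRCAP peaks remained. The number of members with a promoter peak ranged from 6 to 8 (GFP), from 4 to 6 (SRCAP) and from 4 to 6 (both). A window of 2500 bp added Morf4l1 in the GFP list and Kat5 in the SRCAP list, the latter through the peak in the Rnaseh2c promoter, and the stricter score left out Mbtd1 in both lists. With the window of 2500 bp, 41.6%, 41.9% and 32.5% of all protein-coding genes had promoter peaks in the GFP list, the SRCAP list and both. At the stricter score these shares were 22.2%, 23.5% and 16.0%. In windows of 500 bp, 9 of 18 motif counts were higher and 9 equal. These windows contain those of 200 bp, so no count could be lower. The shares over all promoter peaks rose as well, for the SP/KLF motif in the GFP list from 17.5% to 39.9%. Depth is unknown, and the authors' threshold decides which regions are listed.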
